A study of Homo sapiens with 6 samples.

Results

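The genes described here encode the protein components of the cytosolic ribosome. They were chosen by symbol: protein-coding genes on chromosomes 1 to 22 and X named RPL or RPS with a number, together with RPLP0, RPLP1, RPLP2 and RPSA. The rule gave 84 of 19974 protein-coding genes. Of these, 46 encode large-subunit proteins, 31 encode small-subunit proteins, and 7 are paralogs whose symbol carries an L after the number. The symbols alone decide which genes belong. Ribosomal proteins named otherwise, such as FAU, fall outside the rule. So does RPL36AL, because at most 1 letter, A, X or L, may follow the number.

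The study profiled chromatin in human neurons. They were differentiated in BrainPhys medium from neural progenitors, which in turn came from the induced pluripotent cell line KOLF2.1J. All samples came from that 1 cell line and the labels name no treatment, genotype contrast or time point. Chromatin immunoprecipitation sequencing (ChIP-seq) used 2 libraries for CTCF and 2 for H3K27ac, with 2 input libraries, whose values are not analysed here. The values analysed are 1 peak list per antibody that covers both of its libraries, so no spread between replicates can be given for any value below, the sequencing depth is unknown, and differences between genes carry no test. The labels do not say whether the 2 libraries came from separate cultures.

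Ribosomal protein genes are transcribed at high rates in nearly every cell, and their products build the large and small ribosomal subunits. Their mRNAs typically begin with a C followed by a stretch of pyrimidines, the 5′ terminal oligopyrimidine (TOP) tract, through which mTOR signalling controls their translation. In neurons, ribosomes supply the soma and also axons and dendrites, where local translation takes place. Acetylation of histone H3 at lysine 27 (H3K27ac) marks active promoters and enhancers. CTCF is a zinc finger protein that binds DNA at chromatin loop anchors and at many promoters.

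Starts and promoter sequences from RefSeq (GRCh38.p14) were matched to 67 of the 84 genes. The stretches below show the bases around the start, where TOP mRNAs carry their tract. Each runs from 40 bases before the listed start to 20 bases from it, 5′ to 3′, and capitals mark the unbroken run of C and T that spans the start. RPS6 is the best known regulatory target of the set, RPL7A and RPL39 show long runs, and RPL35A and RPL37A had the highest and the lowest H3K27ac at a listed start. RPL22L1, RPS27L and RPL10L are paralogs, the first with such a run and the others without.
RPS6 (chr9:19380217-19380276, minus strand): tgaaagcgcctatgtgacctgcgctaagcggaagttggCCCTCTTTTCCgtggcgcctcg
RPL7A (chr9:133348178-133348237, plus strand): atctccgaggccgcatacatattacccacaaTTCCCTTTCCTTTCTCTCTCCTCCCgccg
RPL39 (chrX:119791611-119791670, minus strand): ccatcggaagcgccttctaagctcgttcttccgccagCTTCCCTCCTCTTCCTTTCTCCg
RPL35A (chr3:197950150-197950209, plus strand): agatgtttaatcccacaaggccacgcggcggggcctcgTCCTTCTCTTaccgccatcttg
RPL37A (chr2:216498804-216498863, plus strand): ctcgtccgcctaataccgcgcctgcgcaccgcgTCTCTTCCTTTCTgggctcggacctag
RPL22L1 (chr3:170870176-170870235, minus strand): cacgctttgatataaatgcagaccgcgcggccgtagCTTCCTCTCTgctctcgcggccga
RPS27L (chr15:63157458-63157517, minus strand): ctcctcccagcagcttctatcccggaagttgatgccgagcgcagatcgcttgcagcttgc
RPL10L (chr14:46651762-46651821, minus strand): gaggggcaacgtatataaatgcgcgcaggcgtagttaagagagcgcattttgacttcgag

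A C at the listed start within an unbroken C and T run of at least 5 bases was found in 45 of the 67 ribosomal protein genes (67.2%). The share was 7.49% over the 15812 protein-coding genes with a listed start, taking 1 window per gene, and 7.32% over all 35116 windows of the table. By group, the run was present in 26 of 38 large-subunit genes, 18 of 24 small-subunit genes and 1 of 5 paralogs, RPL22L1. It reached 25 bases in RPL7A and 22 bases in RPL39. The highest H3K27ac fold enrichment within 1 kb of any listed start had a median of 23.2 in the 45 genes with the run. It was 26.2 in the others with a peak there. The run was scored only at the start nearest the gene's outer end. At genes with several listed starts, such as RPL6, the run and the fold enrichment can therefore belong to different starts.

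The windows, from 250 bases before to 50 bases after the start, were also searched on both strands for short factor motifs. The ETS motif CCGGAAG, read by the GABP family of activators, occurred in 23 of the 67 ribosomal protein windows (34.3%) and in 14.1% of windows of all protein-coding genes. The YY1 motif AAGATGGC occurred in 7 (10.4%, against 3.86%). The SP1 motif GGGCGG occurred in 36 (53.7%, against 58.3%), and the TATA box TATAAA in 7 (10.4%, against 9.75%). CTCF core letters, AGGGGGC or AGGTGGC, occurred in 10 (14.9%, against 23.8%). AGGGGGC followed by GG contains GGGCGG, so the SP1 and CTCF searches can overlap. Median GC content was 59.3% in the ribosomal protein windows and 62.7% in all protein-coding windows. A match of letters is a description of the sequence and not a bound site.

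**Figure D1:**
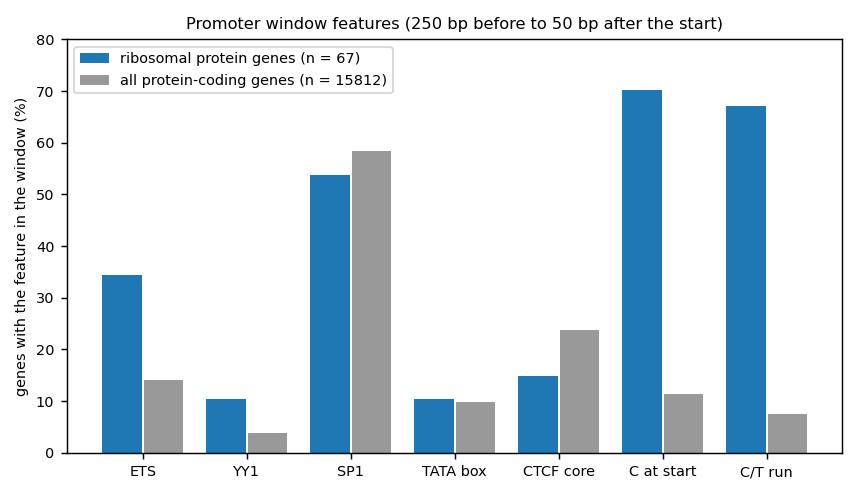
Share of genes (y axis, %) whose promoter window holds each feature, for 67 ribosomal protein genes (blue) and 15812 protein-coding genes (grey). The C start and the C/T run stand out at 70.1% and 67.2% against 11.3% and 7.49%, whereas the bars for SP1 and the TATA box are near each other.

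H3K27ac was listed at 82 of the 84 ribosomal protein genes, each taken with 1 kb on either side (97.6%, 95% Wilson interval 91.7 to 99.3%). Across all protein-coding genes 70.8% had a peak, and across the 7312 genes of similar length 57.7% did. All 46 large-subunit and all 31 small-subunit genes had a peak. The 2 genes without one were both paralogs, RPL10L and RPL39L, which are known for expression in the testis. The 82 genes held 182 distinct peaks. A single peak was found at 24 genes, 2 peaks at 37 genes and 3 or more at 21 genes.

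The highest fold enrichment per gene, which is the authors' value for the peak and was read as a fold enrichment from the layout of the list, had a median of 25.9 among the 82 genes (quartiles 19.7 and 35.6). The median was 15.7 over the 14148 protein-coding genes with a peak and 15.0 over those of similar length. Of the 82 genes, 70 (85.4%) lay above the median of all genes. A fold enrichment of at least 20 was reached by 58 of the 84 genes (69.0%), against 27% of all protein-coding genes. The strongest peak of the typical ribosomal protein gene stood at percentile 95.5 of all H3K27ac peaks, but at percentile 74.1 when each gene was ranked among the best peaks of all genes. The lowest −log10 q of these best peaks was 11.6.

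**Figure D2:**
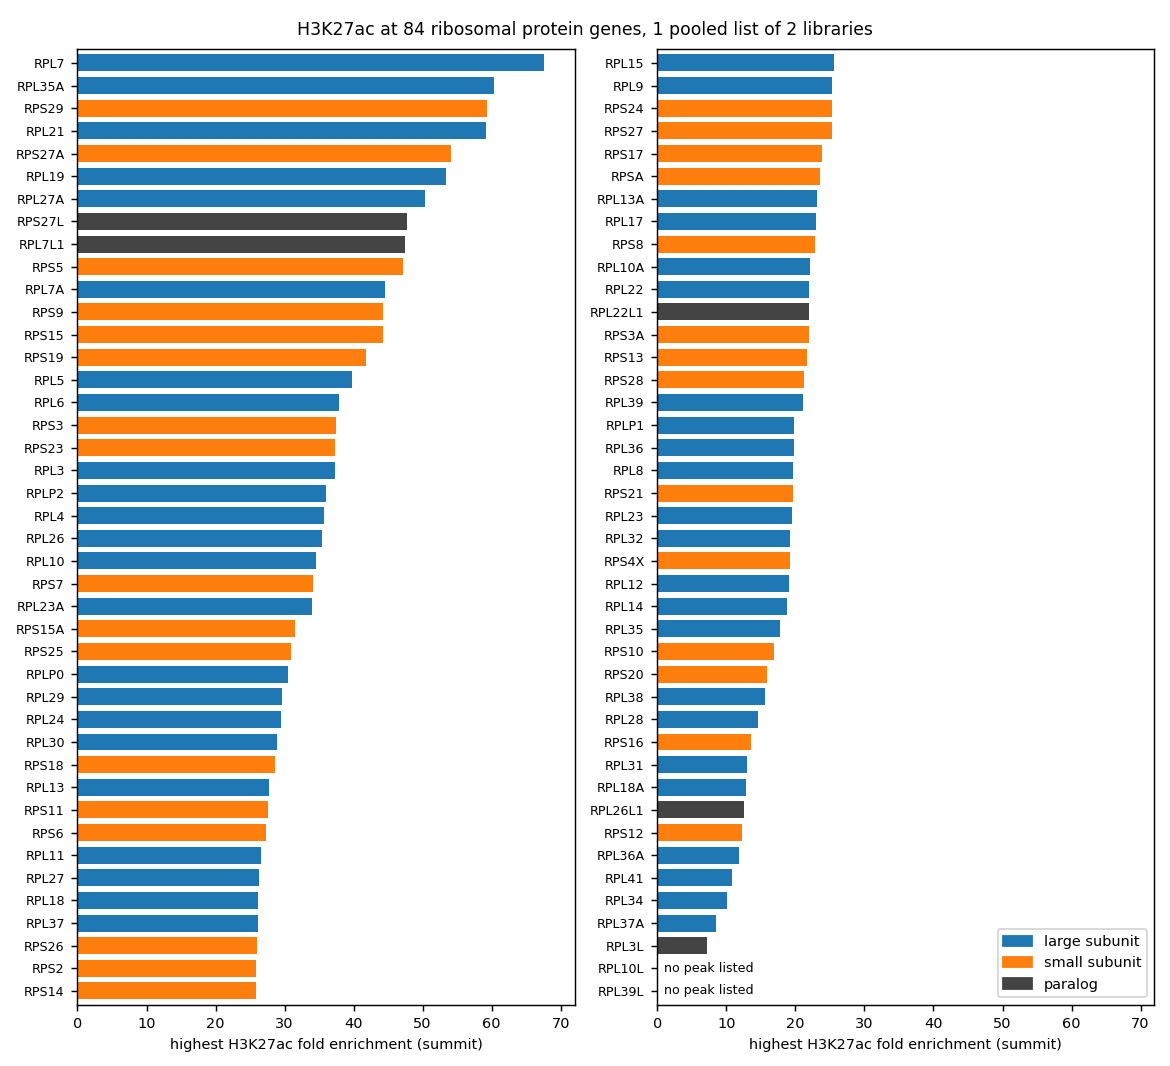
Highest H3K27ac fold enrichment (x axis) of each of the 84 genes, ranked from top left to bottom right and coloured by group, with 1 pooled value per bar and no error bar. Values run from 67.6 at RPL7 to 7.13 at RPL3L, and no peak was listed at RPL10L and RPL39L.

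Large-subunit and small-subunit genes had nearly the same typical level, with medians of 25.86 and 25.89. Within the large subunit the range was 8.50 to 67.6 and within the small subunit 12.3 to 59.4, so the groups overlapped over most of their range. The highest value of all, 67.6, belonged to RPL7 of the large subunit, and its peak also reached into the neighbouring gene RDH10. RPL35A followed with 60.4 at a peak that also holds the start of DRC9. RPL35A is among the genes mutated in Diamond-Blackfan anaemia. RPS29 had a fold enrichment of 59.4 at its listed start, a peak shared with the start of LRR1, and a further peak of 33.7 inside the gene.

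RPL21 reached 59.2 and RPL19 reached 53.4 with no other protein-coding start inside the peak. RPS27A, which is made as a fusion with ubiquitin, reached 54.0 at a peak that also holds the start of CLHC1. These genes at the top of the ranking came from both subunits.

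At the low end, RPL37A had a fold enrichment of 8.50, RPL34 of 10.1, RPL41 of 10.8, RPL36A of 11.8 and RPS12 of 12.3. RPL41 encodes the shortest ribosomal protein. Each of these 5 genes had a peak within 1 kb of a listed start. Among paralogs RPL3L was lowest, with 7.13.

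Genes known from disease or regulation are given next. RPS19, the gene most often mutated in Diamond-Blackfan anaemia, had 41.9, and RPL5 and RPL11, whose proteins bind MDM2 when ribosome assembly is disturbed, had 39.7 and 26.6. RPS14, lost in the 5q deletion of myelodysplastic syndrome, had 25.9. RPS6, the substrate of S6 kinase downstream of mTOR, had 27.3. RPSA, also described as a laminin receptor, had 23.5. All of these except RPSA and RPS14 lay above the median of the 82 genes.

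The stalk proteins, which recruit translation factors to the ribosome, had fold enrichments of 30.5 for RPLP0, 36.0 for RPLP2 and 19.8 for RPLP1. On chromosome X, RPL10, a gene linked to X-linked autism and intellectual disability, had 34.6. RPL39 had 21.1, RPS4X 19.2 and RPL36A 11.8. The median of these 4 genes was 20.2, and the median of the genes on autosomes was 25.96. With 4 genes whose values lie between 11.8 and 34.6, inside the autosomal range of 7.13 to 67.6, this is a description of those genes.

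Each paralog was set beside its parent gene. For RPL10L, expressed in male germ cells, no peak of either list was found, whereas RPL10 had a fold enrichment of 34.6. RPL39L had no H3K27ac peak but a CTCF peak with a signal value of 229.6, whereas RPL39 had a fold enrichment of 21.1. RPL3L, the striated muscle form, had 7.13 against 37.2 at RPL3. The RPL3L peak lay outside the gene interval, within the added 1 kb, and overlapped MSRB1. The RPL3 peak also lay outside its gene interval, with the summit at -577 bp from the start. A further RPL3 peak, inside the gene with its summit at 156 bp, had 19.2.

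Among the other pairs, only RPS27L had a higher value than its parent gene. RPL22L1 had 21.92 and RPL22 had 21.95. RPS27L, a p53 target, had 47.7, and RPS27 had 25.3. RPL26L1 had 12.5, against 35.4 at RPL26, where the start itself carried 17.7 and the higher peak lay at the other end of the gene, overlapping KRABD2. RPL7L1 had 47.5 and RPL7 had 67.6. The high RPL7L1 value came from a peak past the far end of the gene that holds the start of PEX39, and its own start carried 14.8.

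The peaks varied in form. The median width of the best peak was 1174 bp. RPL23A had the widest, 4135 bp with a fold enrichment of 34.0, and this peak also holds the start of RAB34. Its summit lay at -1692 bp from the low-coordinate end of RPL23A, outside the gene and the added 1 kb, so the peak only reaches into RPL23A. RPL12 (2519 bp, shared with the start of LRSAM1) and RPS27L (2369 bp) followed. The narrowest were 436 bp at RPL3L, 458 bp at RPL26L1 and 506 bp at RPS4X. Across the 82 genes Spearman's rho between fold enrichment and width of the best peak was 0.33. Both values come from the same peak of the same list, so this is a description.

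Some ribosomal protein genes sit next to other genes. At 15 of the 82 genes the best peak also held the listed start of another protein-coding gene or readthrough locus. Among these were TRAPPC4 at RPS25, NDUFA7 at RPS28, NKIRAS1 at RPL15 and VPS52 at RPS18. No share over all protein-coding genes was computed for comparison. The median fold enrichment of these 15 was 31.0 and their median width 1702 bp. The remaining 67 genes had medians of 25.3 and 954 bp. Only 15812 of 19974 protein-coding genes have a listed start here, so a neighbour's start can be missed. Best peaks overlapped another protein-coding gene at 23 genes, and RPL7, RPL5 and RPLP2 are among such genes counted in the 67. The 2 groups are therefore not cleanly separated. The part of the neighbouring gene in those peaks was not tested.

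Many ribosomal protein genes carry small nucleolar RNA genes in their introns, whose products guide rRNA modification. RefSeq places 60 such genes inside 29 of the 84 genes. The median fold enrichment was 25.89 with snoRNA genes and 25.87 in the other genes with a peak.

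The related lists give context. All 77 mitochondrial ribosomal protein genes had a peak, with a median of 19.2 and a range of 4.97 (MRPL28) to 72.3 (MRPS5). Of 86 nuclear genes matched by symbol to oxidative phosphorylation, 78 had a peak (90.7%), with a median of 20.2. Not all are distinct subunit genes. The match also took in the readthrough loci ATP5MF-PTCD1 and NDUFC2-KCTD14, the latter with the same 12.9 as NDUFC2. The 8 without one were ATP5MGL, COX4I2, COX6A2, COX6B2, COX7A1, COX7B2, COX8C and UQCRHL, several of which are known as tissue-restricted isoforms. A fold enrichment of 20 or more was reached by 45.5% of the mitochondrial ribosomal list and 46.5% of the oxidative phosphorylation list, and by 69.0% of the cytosolic ribosomal list. These differences between lists were not tested.

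**Figure D3:**
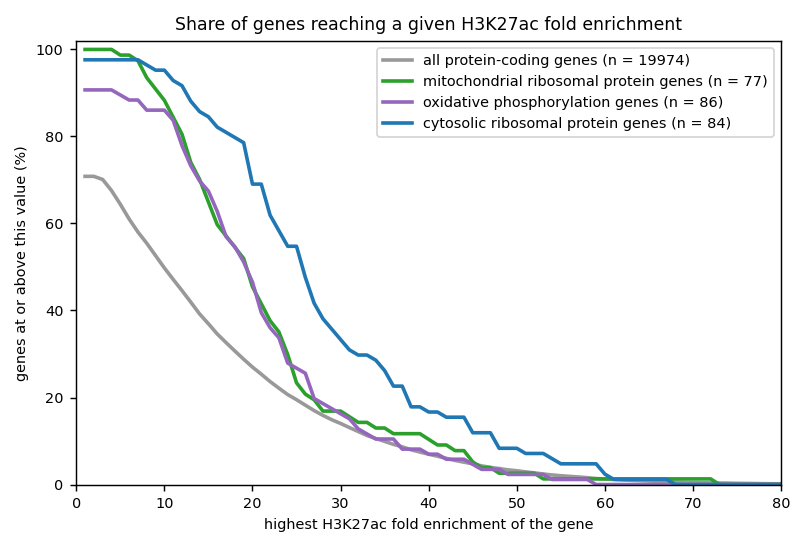
Share of genes (y axis, %) whose highest H3K27ac fold enrichment is at or above the value on the x axis, with genes without a peak counted as not reaching it. At 20, cytosolic ribosomal protein genes (blue) are at 69.0%, mitochondrial ribosomal protein genes (green) at 45.5%, oxidative phosphorylation genes (purple) at 46.5% and all protein-coding genes (grey) at 27%.

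Further genes of the translation machinery were listed too. All 16 translation factor and TOP mRNA genes had a peak, with a median of 30.0. The elongation factor genes EEF1D and EEF1A1 had 69.5 and 38.6, the helicase gene EIF4A1 had 28.6, and EEF1G was lowest with 17.7. Outside the rule, FAU, which encodes a small-subunit protein fused to a ubiquitin-like domain, had 22.03, and RACK1, a scaffold protein on the small subunit, had 50.3. The 16 ribosome biogenesis genes all had a peak but spread more widely, from 5.79 at TCOF1 to 74.0 at NCL, with a median of 17.3.

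Positions were measured from the nearest listed start of each gene, with downstream positive. H3K27ac lay within 1 kb of a start at 66 of the 67 genes (98.5%), against 65.9% of all protein-coding genes. The exception was RPL10L. At 56 of these 66 genes (84.8%) a start lay inside a peak, against 70.7% of protein-coding genes with H3K27ac that near. The strongest summit at the start had a median position of 109.5 bp downstream, close to the 112 bp of all genes. It fell between 100 and 200 bp downstream at 34 of 66 genes (51.5%), against 33.4% of all genes with a peak there.

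H3K27ac summits stood on both sides of the start at 34 of the 67 genes (50.7%), against 32.0% of all protein-coding genes and 48.5% of those with H3K27ac at the start. In these genes the median summit positions were -325 bp and 131 bp. The downstream peak was the higher at 25 of the 34 genes (73.5%), against 60.5% over all genes with peaks on both sides. The median fold enrichment was 20.7 on the downstream side and 11.8 on the upstream side. RPL27 was among the most one-sided, with 26.2 downstream and 2.40 upstream, and RPLP0 went the other way, with 8.54 downstream and 30.5 upstream.

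A single peak across the start was the other common form. RPL21, RPL35A and RPS23 each had 1 peak, with the summit at -119, -148 and -144 bp. RPS6, RPL24 and RPL35 also had 1 peak each, with the summit at 140, 126 and 115 bp, so this form occurred with summits on either side. For the genes with no listed start here, 16 had an H3K27ac peak, and the best summit lay at a median of 185.5 bp from the nearer end of the gene, within 1 kb at 15 of them.

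**Figure D4:**
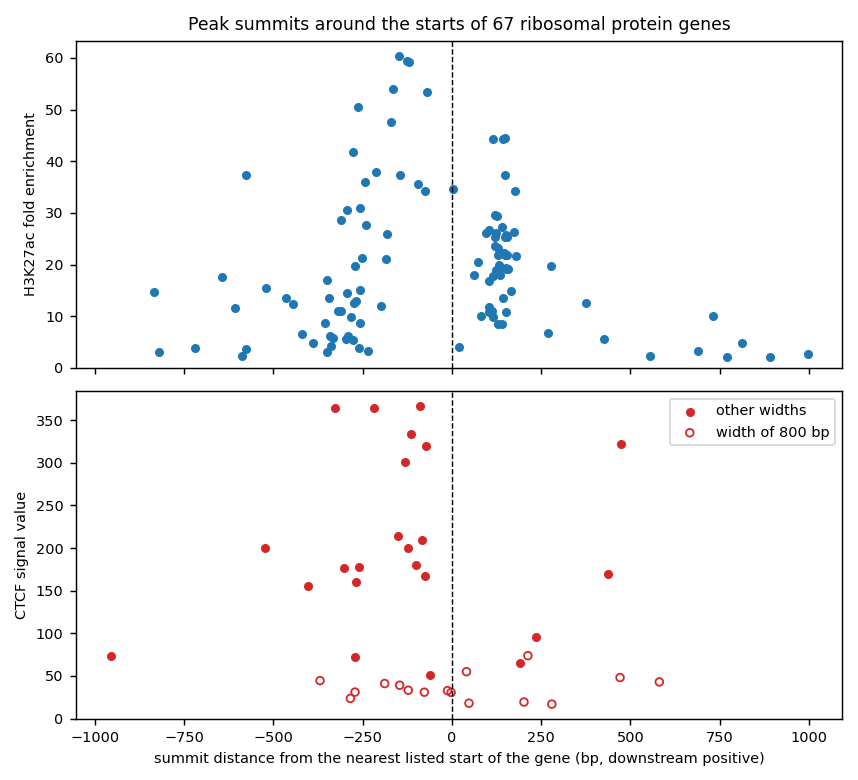
Summits within 1 kb of the starts of 67 genes: summits of H3K27ac peaks (top, fold enrichment) and CTCF peaks (bottom, signal value) by distance from the nearest listed start (x axis, bp, downstream positive), each point 1 peak of 1 gene and open circles CTCF peaks of 800 bp. H3K27ac summits gather near 131 bp downstream and more loosely upstream, and CTCF summits with signal values above 300 lie mostly before the start.

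CTCF was listed at 51 of the 84 genes (60.7%, 95% Wilson interval 50.02 to 70.47%), and at 60.4% of all protein-coding genes. Among genes of similar length the share was 44.8%. These shares moved with the added 1 kb: without it 39 genes had CTCF (46.4%, against 55.6% of all genes), and with 5 kb 63 had it (75%, against 68.4%). In the 50% of peaks with the highest values the count was 33 (39.3%, against 41.7%). The median of the highest CTCF signal value per gene was 169.7 (quartiles 60.3 and 245.6), against 153.5 over all genes with a peak. The 51 genes held 66 CTCF entries, counting each summit of a peak listed more than once. Of these, 19 had the width of 800 bp that recurs in this list, with a median signal value of 36.1, and 47 had other widths, with a median of 181.9. At 11 genes every CTCF peak had that width, RPS6, RPS25, RPS28 and RPLP2 among them. Such peaks were not particular to these genes. With peaks of that width left out, 40 genes had CTCF (47.6%), near the 49.4% of all protein-coding genes.

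The 6 highest CTCF signal values were 374 at RPL5, 366 at RPS15, 365 at RPS14, 364 at RPLP0, 341 at RPL4 and 334 at RPL38. The RPL5 peak lies at chr1:92831682-92832529 and spans the low-coordinate end of the gene. The peaks of RPS15, RPLP0 and RPL38 had summits at -90, -217 and -113 bp, and that of RPS14 at -327 bp. RPL4 differed, as its peak lay 6982 bp downstream of the start, at the far end of the gene. In all, 12 of the 51 genes with CTCF had a signal value of at least 300. The share of all protein-coding genes above that cut was not computed. Upper quartiles of the best signal value were near each other, 245.6 here and 241.1 over all genes with a CTCF peak.

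The sequence under the CTCF summit is shown for RPLP0 and RPL38, where core letters of the promoter window lie within 20 bases of that summit. Each is 100 bases long, 5′ to 3′ on the gene's strand, with the core letters in capitals.
RPLP0 (chr12:120201262-120201361, minus strand): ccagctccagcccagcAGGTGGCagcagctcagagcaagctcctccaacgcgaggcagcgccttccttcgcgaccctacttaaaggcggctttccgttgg
RPL38 (chr17:74203528-74203627, plus strand): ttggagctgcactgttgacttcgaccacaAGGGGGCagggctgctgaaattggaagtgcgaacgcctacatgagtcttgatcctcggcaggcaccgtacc

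CTCF summits lay within 500 bp of a listed start at 31 of the 67 genes (46.3%, 95% Wilson interval 34.9 to 58.1%). The share was 26.6% over all protein-coding genes, 36.5% over those with H3K27ac at the start, and 39.2% over those with a fold enrichment of at least 20 there. The strongest of these CTCF peaks had a median signal value of 160.6, against 76.5 at all genes with CTCF that near. It lay upstream of the start at 23 of the 31 genes (74.2%, against 59.5%), and the median position over the 31 was -101 bp. Among the 10 genes with CTCF core letters in the window, 6 had such a peak, with a median signal value of 349. Of the 57 without them, 25 had one, with a median of 71.8. Among the 6 genes with both letters and peak, only RPLP0 and RPL38 had the letters within 20 bases of the summit. At RPS14, RPS15, RPL36 and RPL26L1 the letters lay farther from it. The summits of RPS14 and RPL26L1, at -327 and 475 bp, fell outside the searched window. The median of 349 is therefore not a value for letters under the summit.

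CTCF and H3K27ac peaks that share at least 1 bp were present at 45 of the 84 genes (53.6%, 95% Wilson interval 43.0 to 63.8%), against 36.3% of all protein-coding genes and 27.7% of those of similar length. The count was 27 (32.1%, against 27% of all genes) when the CTCF summit had to lie inside the H3K27ac peak. It was 25 (29.8%, against 16.4%) in the 50% of peaks with the highest values in each list. Such an overlap needs an H3K27ac peak, which 97.6% of these genes and 70.8% of all protein-coding genes had. Among genes with H3K27ac, 45 of 82 ribosomal protein genes and 7246 of 14148 protein-coding genes had an overlap. With the CTCF summit inside the H3K27ac peak, the counts were 27 of 82 and 5393 of 14148, the latter a larger share. At 14 of the 67 genes with a listed start (20.9%) a CTCF summit lay between an upstream and a downstream H3K27ac summit. The share was 9.59% of all protein-coding genes, 14.5% of those with H3K27ac at the start and 13.7% of those with a fold enrichment of at least 20 there. RPS15 is an example: H3K27ac of 5.50 at -296 bp, a CTCF signal value of 366 at -90 bp, and H3K27ac of 44.3 at 142 bp. RPS3A had the same order, with H3K27ac of 6.11 at -342 bp, CTCF of 301 at -132 bp, and H3K27ac of 21.9 at 148 bp. RPS4X on chromosome X did too, with a CTCF signal value of 167.5 at -75 bp.

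H3K27ac levels were set beside CTCF gene by gene. The median best fold enrichment was 25.7 in the 50 genes with both marks and 26.1 in the 32 with H3K27ac alone. Spearman's rho between the best fold enrichment and the best CTCF signal value was 0.07 over the 50 genes, whose values come from the same 2 lists. The median CTCF signal value was 51.2 at the 15 genes with CTCF and 1 H3K27ac peak. It was 181 at the 16 genes with 2 H3K27ac peaks and 205 at the 19 with 3 or more. These groups differ in the weak CTCF peaks of 800 bp. Among the 15, the best CTCF peak had that width at RPL22L1, RPL35, RPL39, RPL3L, RPLP2, RPS25, RPS28 and RPS6. In the other groups it did so only at RPL12, RPL13A and RPL27A. The part of that width in the difference between the medians was not tested.

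**Figure D5:**
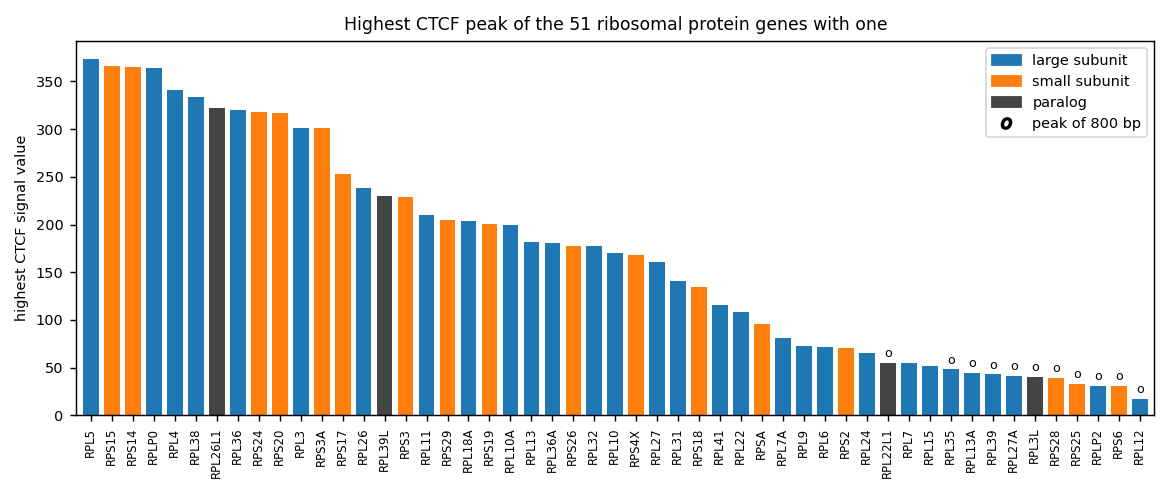
Highest CTCF signal value (y axis) of the 51 ribosomal protein genes with a CTCF peak, ranked and coloured by group, with an o above bars whose peak has the width of 800 bp. The values fall from 374 at RPL5 to 16.9 at RPL12, and no gene whose best peak has that width exceeds 55.0, the value of RPL22L1.

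As a check of the labelled cell type, H3K27ac was listed at all 10 neuron markers, with a median fold enrichment of 17.9 and a range of 5.96 (RBFOX3) to 47.0 (GAP43). It was also listed at all 6 neural progenitor markers, with a higher median of 35.4, and at 3 of 4 astrocyte markers. Of the pluripotency markers, POU5F1 and NANOG had no peak and 2 of 4 had one, and 3 of 5 liver and muscle markers had one. These counts stand against 70.8% of all protein-coding genes with a peak, and the neuron markers are long genes, with a median of 108194 bp, so a listed peak says little about cell type. The share of progenitors in the cultures and its part in the ribosomal protein values were not tested.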

How the data were processed

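Chromatin was crosslinked and sheared before immunoprecipitation, per the labels' protocols. The build is hg38 and reads were trimmed with cutadapt 1.16, per the submitters' processing notes. How reads were aligned, deduplicated and called into peaks is not given in the sources used here. The authors deposited 1 list of 10 columns per antibody, each for both replicates, with 0 columns of per-sample values. The deposited CTCF signal is on an unstated scale, in a list named for IDR, a filter on reproducibility. The deposited H3K27ac value was read as a fold enrichment, a ratio, from its layout. Both deposited lists give −log10 q values. The scales differ, so values were compared only within a list, and no count test was possible.

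RefSeq gene intervals (GRCh38.p14) were extended by 1 kb, and a peak was assigned where at least 1 bp was shared. The best value is the highest per gene. Genes of similar length lie between percentiles 5 and 95 of the members' lengths. Starts come from the RefSeq promoter table, which matched 15812 protein-coding genes. For the sequence searches the window nearest the gene's outer end was used. Wilson intervals cover counting error only. The overlap code was tested on simulated intervals. Python 3.11.15, pandas 2.3.3, numpy 2.4.6 and scipy 1.17.1 were used.

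The members, lists and named genes were chosen with earlier results of these data known. Named were all members without H3K27ac, the 6 highest and 6 lowest, the 6 highest in CTCF, paralogs, genes on chromosome X, the 3 widest and narrowest peaks, the 3 genes with most peaks, and 10 genes of known role. Other genes given as examples were chosen after their values were seen. So were the side of the start, the CTCF position between summits, the window of 100 to 200 bp, the fold enrichment of 20, the CTCF signal value of 300, the C and T run of 5, the neighbouring starts and the snoRNA genes. Alternatives were the extension, stricter lists, the width of 800 bp, summits, starts, paralogs, and fold enrichment times width. One gene of a related list is not reported here.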

Additional observations from a re-analysis of the deposited data

How the results depend on the processing

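No paired analysis was possible because the 2 libraries of an antibody share 1 list, and leaving out a replicate was not run for the same reason. The number of ribosomal protein genes with H3K27ac stayed at 81 or 82 of 84 under every change of extension, q limit, list length or summit rule tried. The median best fold enrichment of 25.9 was 23.5 without the extension and 26.1 with 5 kb. As fold enrichment times width summed over a gene's peaks, the median was 34300.3, against 24019.6 for all protein-coding genes. The number of genes with CTCF, 51, was 39 without the extension, 63 with 5 kb, 40 without peaks of 800 bp (47.6%, against 49.4% of all genes) and 33 in the 50% of peaks with the highest values. The members' share thus lay below that of all genes without the extension and above it with 5 kb. The median best CTCF signal value of 169.7 was 180.1 with 5 kb, 210.0 in the 50% of peaks with the highest values and 200.3 without peaks of 800 bp, the last 2 of which remove weak peaks. The number of genes where both marks overlap, 45, was 27 with the CTCF summit inside the H3K27ac peak, 33 without peaks of 800 bp (39.3%, against 25.2% of all genes) and 25 when the lower 50% of both lists was dropped. The cause of the other moves was not tested. Depth is unknown, so a gene without a peak is one where none was listed.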

Other observations

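Several ribosomal protein genes carried peaks away from their starts. RPL38 and RPL13A had the most H3K27ac peaks, 7 each. At RPL38, which is known for its part in the translation of Hox mRNAs, the best peak was not at the start (13.4) but at the far end of the gene, with a fold enrichment of 15.6 and a width of 2085 bp. A CTCF peak of 329 lay there, close in signal to the 334 of the CTCF peak at the start. At RPL13A, 5 of the 7 peaks had a fold enrichment under 4 and lay along the gene body.

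RPS24, RPS3, RPL3 and RPL27A had 5 H3K27ac peaks each. RPS24 had a CTCF peak of 318 that lay 13607 bp downstream of the start and a weak H3K27ac peak of 6.36 beside it. RPL3 had a CTCF peak of 301 that lay 3034 bp downstream, and RPS3 one of 229 that lay 8546 bp downstream. RPS29 had 33.7 at an internal H3K27ac peak 12458 bp from its only listed start. At RPL6, a peak of 37.9 had its summit at -211 bp from a listed start inside the gene, and a peak of 34.5 stood 220 bp from its high-coordinate end.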
